A study of Mus musculus with 4 samples.

Results

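The genes described here are those that mark naive and quiescent T cells, measured in follicular and other regulatory T cells of mice in which Prdm1, the gene of the transcriptional repressor Blimp-1, was or was not targeted. The set held 8 genes, Tcf7, Lef1, Satb1, Foxo1, Foxp1, Dapl1, Igfbp4 and Actn1, and a probe annotated to exactly 1 gene was found for 7 of them, out of 22180 genes in all. Tcf7 was not analysed here. The set was drawn up with results of these same arrays in view, where transcripts typical of resting cells had lower levels in follicular cells. Their differences between the arrays are therefore given as a description and support nothing.

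T cells that have not met antigen, or that rest after having met it, are held in that state by a small set of transcription factors. TCF1 (encoded by Tcf7) and LEF1 are related HMG-box proteins that bind the same DNA motif, and with beta-catenin or Groucho family corepressors they turn genes on or off. FOXO1 is a forkhead factor that is kept in the nucleus while PI3K and AKT signalling is low. It drives the genes for homing and survival receptors of resting T cells, among them Ccr7, Klf2, Il7r and S1pr1. FOXP1, another forkhead protein, restrains the exit of T cells from quiescence, and SATB1 organizes chromatin in developing and naive T cells. Dapl1 (death-associated protein-like 1), Igfbp4 (a secreted protein that binds insulin-like growth factors) and Actn1 (alpha-actinin, which crosslinks actin filaments) are transcripts commonly found high in naive T cells. Blimp-1, encoded by Prdm1, is a zinc finger repressor of activated and effector lymphocytes and opposes BCL6, the factor of follicular T cells.

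All mice had received NP-OVA, a hapten coupled to ovalbumin, in CFA (complete Freund's adjuvant) 7 days earlier, and all carried the FoxP3YFP-Cre allele, in which cells that express Foxp3 make YFP and Cre. The KO TFR group was sorted as CD4+ YFP+ cells carrying PD1 and CXCR5 from Prdm1fl/flFoxP3YFP-Cre mice, and the WT TFR group as the same cells from FoxP3YFP-Cre mice without the floxed alleles. The KO non-TFR and WT non-TFR groups were CD4+ YFP+ cells without CXCR5 from the same 2 genotypes, and no PD1 gate is stated for them. Each of the 4 groups was 1 Affymetrix Mouse Gene 2.0 ST array of total RNA, so no difference below has a replicate check and none was tested. The labels give no strain background, age or sex and no number of mice per array. Foxp3 drives Cre, so the floxed alleles are targeted only where Foxp3 is or was expressed, and the label WT stands for mice that express Cre too.

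The level of a gene is a log2 array value, so that a difference of 1 is 2-fold, and a gene is called expressed when its 4 arrays averaged above 5.91, the median over genes. This held for 11090 genes. The array gives no detection calls, and levels of different genes are not compared with each other. The targeted gene, Prdm1, was at 7.32 in KO TFR cells, against 8.21 in WT TFR cells, and at 7.59 in KO non-TFR cells, against 7.80 in WT non-TFR cells. Which part of the transcript this probe covers is not known here, and outside the floxed part it would not check the deletion. Cd3e lay between 12.93 and 13.04 and Foxp3 between 11.87 and 12.45 in the 4 arrays, both well above the limit. Foxp3 itself had its levels in the same order as the 7 genes below, 11.87 in KO TFR, 12.36 in WT TFR, 12.42 in KO non-TFR and 12.45 in WT non-TFR cells. In a bulk sample, fewer cells of a type and less RNA per cell cannot be told apart.

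The start sites of the 7 genes were searched for letters bound by the factors that the set contains or that the mice were targeted for. The windows run from 250 bases before to 50 bases after each start annotated by RefSeq on GRCm38.p6, 300 bases long, and all 7 genes matched by symbol, with 16 windows between them. On both strands, CTTTGA, the core of the TCF and LEF motif, was in 2 of the 16 member windows (Lef1 and Foxp1), against 16.0% of all 32851 windows. GTAAACA, the forkhead motif of FOXO proteins, was in 1 (Dapl1), against 3.65% of all windows. GTGAAAG, a core of the Blimp-1 motif, was in 0 of 16, against 4.24% of all windows. By gene, CTTTGA was held by 2 of the 7 genes and by 18.2% of all genes, GTAAACA by 1 of the 7 and by 4.05%, and GTGAAAG by 0 of the 7 and by 4.89%. The 7 genes have 16 windows and all 27025 genes have 32851, so the 7 have more windows per gene in which to match. Some windows of Lef1 and some of Satb1 overlap each other. The motifs do not overlap in these windows. A match is a description and not a site, and no match says only that these letters are not in the window. The 3 windows with a match are shown because they are the only member windows that hold any of these letters, and the matches are in capitals. In Lef1 (the last of its 4 annotated starts, chr3:131156044-131156343, plus strand) they begin at -180 and -120 from the start, in Foxp1 (the second of its 3 starts, chr6:99266466-99266765, minus strand) at -204, each read as the reverse complement of CTTTGA, and in Dapl1 (its single start, chr2:59484403-59484702, plus strand) at -164.

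Lef1: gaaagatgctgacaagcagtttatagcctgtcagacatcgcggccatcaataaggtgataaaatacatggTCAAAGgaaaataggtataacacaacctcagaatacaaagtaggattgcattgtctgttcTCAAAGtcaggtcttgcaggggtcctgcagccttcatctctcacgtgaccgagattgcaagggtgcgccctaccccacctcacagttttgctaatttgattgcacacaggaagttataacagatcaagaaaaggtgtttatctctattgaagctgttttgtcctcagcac

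Foxp1: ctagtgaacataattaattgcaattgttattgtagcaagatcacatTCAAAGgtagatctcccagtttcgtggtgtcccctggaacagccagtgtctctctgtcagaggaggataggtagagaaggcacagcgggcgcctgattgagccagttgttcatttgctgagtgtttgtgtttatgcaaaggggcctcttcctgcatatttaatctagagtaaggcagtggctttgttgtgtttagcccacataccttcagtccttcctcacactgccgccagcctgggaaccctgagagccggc

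Dapl1: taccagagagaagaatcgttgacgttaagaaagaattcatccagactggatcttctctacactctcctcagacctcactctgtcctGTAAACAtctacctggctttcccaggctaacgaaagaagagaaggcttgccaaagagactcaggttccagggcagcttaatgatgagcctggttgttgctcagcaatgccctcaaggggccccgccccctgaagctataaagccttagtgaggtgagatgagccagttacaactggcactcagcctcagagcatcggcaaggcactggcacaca

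By the brightest probe of each gene, all 7 genes were lower in TFR than in non-TFR cells, in knockout and in control mice, and all 7 were lower in knockout than in control cells, in both populations. By that probe each of the 7 genes had its levels in the same order, which the second, dimmer Foxo1 probe did not share: lowest in KO TFR, then WT TFR, then KO non-TFR and highest in WT non-TFR cells. Among expressed genes, 48.4% were lower in KO TFR than in KO non-TFR cells, 47.5% in WT TFR than in WT non-TFR, 46.1% in KO TFR than in WT TFR and 44.2% in KO non-TFR than in WT non-TFR cells. The full order was found in 11.0% of the 11090 expressed genes, and 30.1% were lower in both TFR arrays than in both non-TFR arrays. The gap between the higher TFR array and the lower non-TFR array ran from 0.18 in Actn1 and Lef1 to 1.59 in Dapl1.

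**Figure D1:**
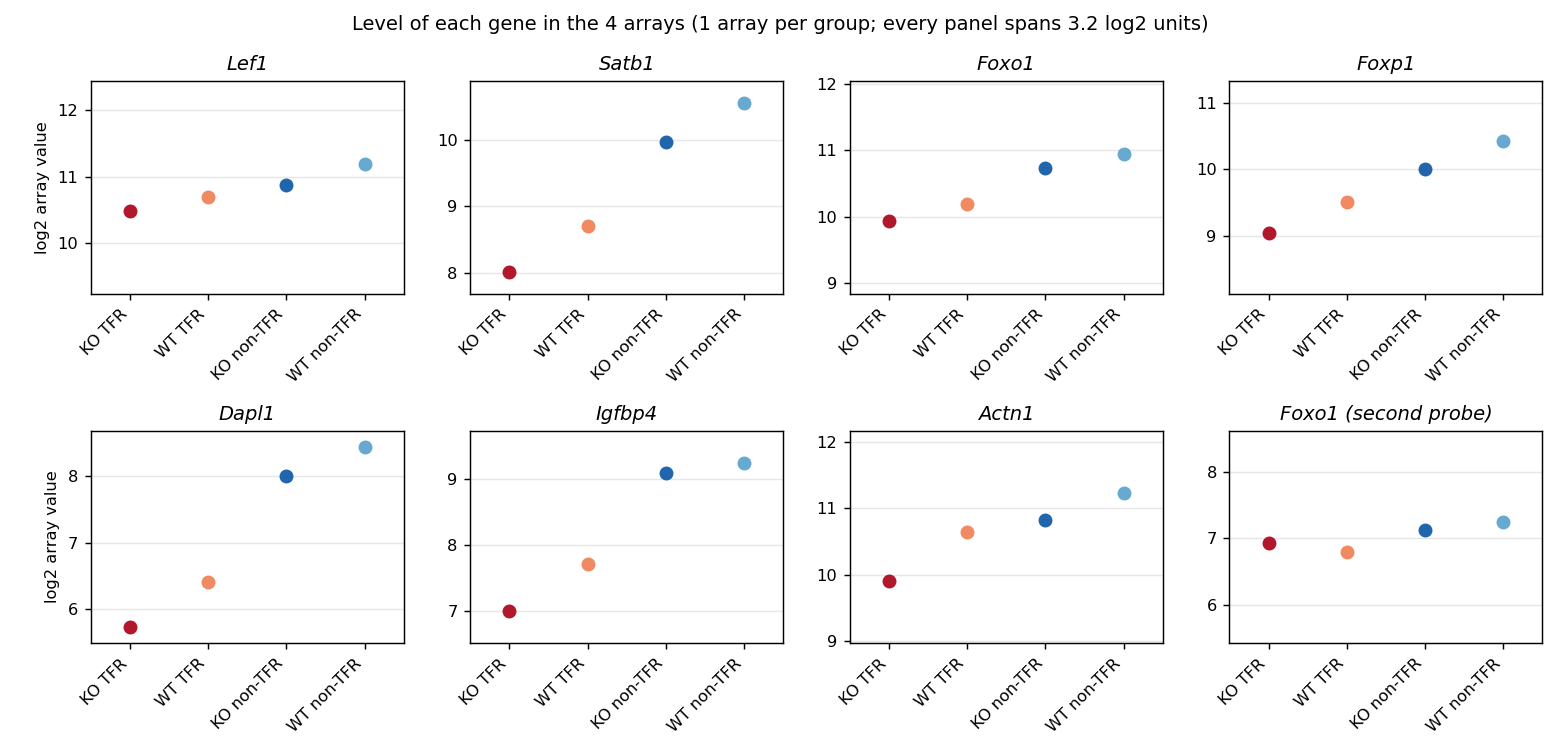
Log2 array value (y axis, own range in each panel, all 3.2 units tall) of each gene in KO TFR, WT TFR, KO non-TFR and WT non-TFR cells (1 point is 1 array). In the first 7 panels the points climb from left to right, from 5.74 to 8.44 in Dapl1 and from 10.48 to 11.20 in Lef1, whereas the second, dimmer Foxo1 probe has its lowest point in WT TFR cells.

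Among the transcription factors, Satb1 differed most between the populations. Its probe (17345926) had a level of 8.02 in KO TFR, 8.70 in WT TFR, 9.97 in KO non-TFR and 10.55 in WT non-TFR cells. The TFR arrays lay 1.26 or more below the non-TFR arrays. By any amount, 30.1% of expressed genes were lower in both TFR arrays, and the share with a gap of this size was not counted. Satb1 was 1.95 lower (3.86-fold) in KO TFR than in KO non-TFR cells, and 5 expressed genes had a lower difference. In control mice it was 1.85 lower (3.60-fold), with 9 expressed genes below it. Across the whole range, the KO TFR array was 2.53 below the WT non-TFR array, 5.79-fold.

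Lef1 (probe 17402662) differed least between the populations. It had a level of 10.48 in KO TFR, 10.70 in WT TFR, 10.88 in KO non-TFR and 11.20 in WT non-TFR cells. The steps between neighbouring arrays were of like size, and no test shows that any of them exceeds array error. The population difference was -0.39 in knockout and -0.50 in control mice, where 13.3% and 8.03% of expressed genes were lower still.

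Foxo1 was covered by 2 probes. The brighter one (17397497) was at 9.94 in KO TFR, 10.19 in WT TFR, 10.73 in KO non-TFR and 10.94 in WT non-TFR cells, so that TFR cells were 0.80 lower in knockout and 0.76 lower in control mice. The second probe (17405165) was at 6.93 in KO TFR, 6.80 in WT TFR, 7.12 in KO non-TFR and 7.24 in WT non-TFR cells. There the populations were 0.19 apart in the knockout and 0.45 apart in the control, TFR lower in both, and the genotypes stood the other way round in TFR cells. The 2 probes thus share the direction between populations and disagree on the genotype in TFR cells (-0.25 and 0.14).

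Foxp1 (probe 17469414) was at 9.04 in KO TFR, 9.51 in WT TFR, 10.00 in KO non-TFR and 10.42 in WT non-TFR cells. TFR cells were 0.96 lower in knockout and 0.91 lower in control mice, just short of 2-fold in both (1.95-fold and 1.88-fold). Of the 3 transcription factors other than Satb1, Foxp1 had the largest difference in each of the 4 comparisons.

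Dapl1 (probe 17371011) had the largest population difference of the 7 genes. Its level was 5.74 in KO TFR, 6.42 in WT TFR, 8.0 in KO non-TFR and 8.44 in WT non-TFR cells. The KO TFR value lay below the expression limit of 5.91 and may be at background, so that differences from it can be too small. Dapl1 was 2.27 lower in KO TFR than in KO non-TFR cells, with 2 expressed genes lower still. It was 2.02 lower in WT TFR than in WT non-TFR cells (4.06-fold), with 6 expressed genes lower still.

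Igfbp4 (probe 17256264) was at 7.01 in KO TFR, 7.72 in WT TFR, 9.08 in KO non-TFR and 9.23 in WT non-TFR cells. The non-TFR arrays stood close together and both stood well above the TFR arrays. The population difference was -2.07 in knockout mice (4.21-fold lower) and -1.51 in control mice (2.85-fold lower).

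Actn1 (probe 17282226) had uneven steps between the arrays. It was at 9.90 in KO TFR, 10.64 in WT TFR, 10.82 in KO non-TFR and 11.23 in WT non-TFR cells, and WT TFR lay nearer to KO non-TFR than to KO TFR cells. It was 0.92 lower in KO TFR than in KO non-TFR and 0.59 lower in WT TFR than in WT non-TFR cells. Its genotype difference in TFR cells, -0.74, was the largest of the 7 genes.

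Set beside all expressed genes, 3 of the 7 genes (Satb1, Dapl1 and Igfbp4) were at least 2-fold lower in TFR cells in each genotype, and 1.37% of expressed genes were so in the knockout and 1.36% in the control. None of the 7 was at least 2-fold higher, which 3.03% of expressed genes were in the knockout and 4.13% in the control. The median over the 7 genes was -0.96 in knockout and -0.91 in control mice, and that of all expressed genes was 0.01 and 0.02. Below the middle 95% of expressed genes, which began at -0.82 in the knockout and -0.80 in the control, lay 5 of the 7 genes in the knockout and 4 in the control. Since the genes were chosen by this contrast, nothing is read from these counts.

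**Figure D2:**
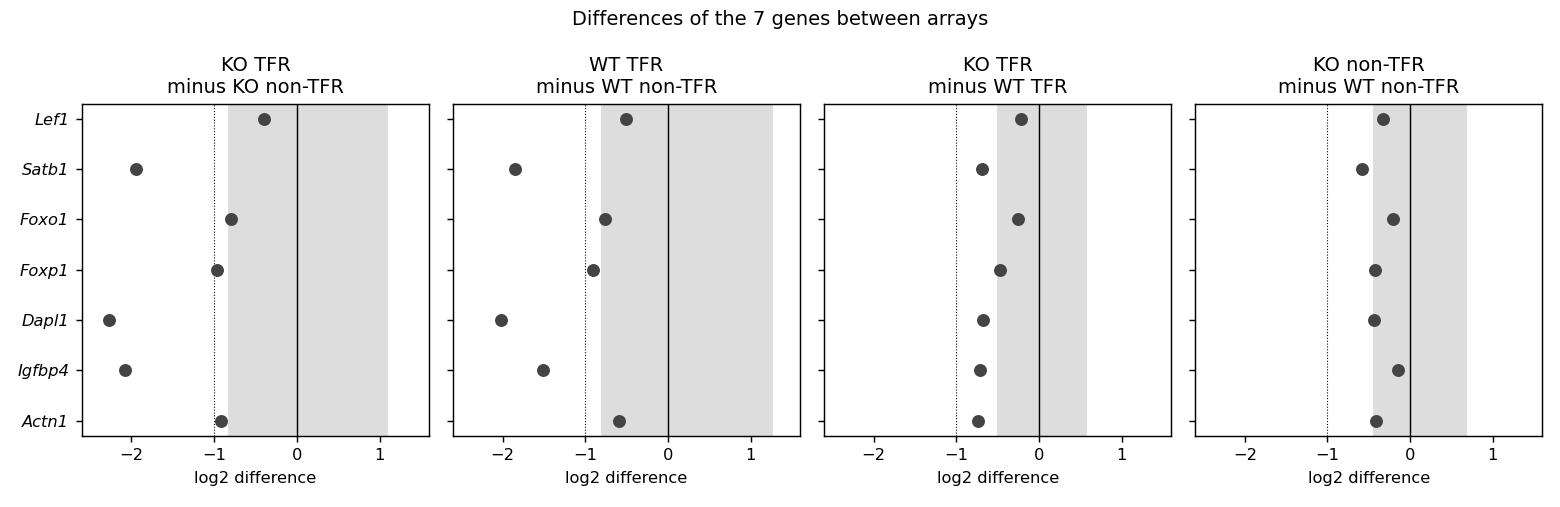
Log2 difference (x axis) of each gene in the 4 comparisons, 1 point per gene, the brightest probe for Foxo1. The grey band is the middle 95% of expressed genes, the dotted line is 2-fold lower, and the points lie below 0 in all 4 panels, farthest left for Dapl1 (-2.27) in KO TFR minus KO non-TFR.

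The genotype comparison asked how the genes differ when Prdm1 is targeted in Foxp3-expressing cells. In TFR cells the 7 genes were 0.21 (Lef1) to 0.74 (Actn1) lower in the knockout than in the control, with a median of -0.68 against 0.02 for all expressed genes. Igfbp4 was 0.71 lower (1.64-fold), Satb1 0.68 lower (1.61-fold) and Dapl1 0.68 lower. Foxp1 was 0.48 lower (1.39-fold) and Foxo1 0.25 lower by its brighter probe (1.19-fold). With the mean of its 2 probes the Foxo1 difference was -0.06. None of the 7 was 2-fold apart, and 0.234% of expressed genes were at least 2-fold lower and 0.442% at least 2-fold higher. Of the 7 genes, 4 lay below the middle 95% of expressed genes, which began at -0.50.

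In non-TFR cells the 7 genes were 0.15 (Igfbp4) to 0.59 (Satb1) lower in the knockout than in the control, with a median of -0.42 against 0.03 for all expressed genes. Satb1 was 1.50-fold lower, Dapl1 0.43 lower (1.35-fold), Foxp1 0.42 lower (1.34-fold) and Actn1 0.42 lower (1.33-fold). None was 2-fold apart, with 0.126% of expressed genes at least 2-fold lower and 0.775% at least 2-fold higher. Of the 7 genes, only Satb1 lay below the middle 95%, which began at -0.44. Population and genotype comparisons share arrays, so that their values for a gene are not independent of each other.

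The size of the genotype difference could be set between the populations, as the difference in TFR cells minus that in non-TFR cells. For 4 of the 7 genes it was within 0.15 of 0: Foxo1 -0.04, Foxp1 -0.05, Satb1 -0.10 and Lef1 0.11. Values this small were common, as the quartiles of expressed genes were -0.19 and 0.15. For the other 3 the knockout was farther below the control in TFR cells: Igfbp4 -0.56, Actn1 -0.33 and Dapl1 -0.25. The middle 95% of expressed genes ran from -0.70 to 0.58 for this quantity, and all 7 genes lay inside it. With 4 single arrays there is no test of this difference.

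The other genes of the naive and quiescent state were described from a list of 35 genes, of which 32 were measured, 30 of them expressed. Counts cover all 32. This list and those below were chosen with earlier results of these data known, so their counts are a description and support nothing. In the knockout 27 of 32 had their lower level in TFR cells, 7 of them by at least 2-fold, and the median was -0.52. In the control 26 were lower, 5 of them by at least 2-fold, and the median was -0.54, and the medians of all genes were 0.00 and 0.01. The 5 include Ly6c1, which lay below the expression limit on average. Of expressed genes, 48.4% were lower in the knockout and 47.5% in the control, and 1.37% and 1.36% were at least 2-fold lower. At least 2-fold lower in both genotypes were 4: S1pr1, Klf2, Rasgrp2 and Ly6c2. The share of expressed genes lower by that much in both genotypes was not computed, so nothing is read from the 4.

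Klf2, a zinc finger factor that keeps T cells quiescent and drives S1pr1, was at 8.58 in KO TFR, 9.34 in WT TFR, 10.16 in KO non-TFR and 10.52 in WT non-TFR cells, in the same order as the 7 genes. S1pr1, the receptor with which T cells leave lymphoid organs, was at 10.08 in KO TFR and 10.10 in WT TFR cells and at 11.23 in KO non-TFR and 11.67 in WT non-TFR cells, so that the genotypes were 0.01 apart within TFR cells. Rasgrp2, an activator of the small GTPase Rap1, was 1.44 lower in TFR cells of the knockout and 1.38 lower in those of the control. Its genotype differences were -0.98 in TFR and -0.91 in non-TFR cells.

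Ccr7, the receptor for homing to the T cell zone, was at 8.52 in KO TFR, 9.86 in WT TFR, 10.21 in KO non-TFR and 10.59 in WT non-TFR cells, and the KO TFR array stood apart from the other 3. Bach2, a repressor of effector genes, was at 7.34 in KO TFR, 8.33 in WT TFR, 8.71 in KO non-TFR and 9.17 in WT non-TFR cells. Il7r, the interleukin-7 receptor chain, left the order, with 9.21 in KO TFR, 9.35 in WT TFR, 10.42 in KO non-TFR and 9.85 in WT non-TFR cells. Ly6c2 was 2.64 lower in TFR cells of the knockout and 2.77 lower in those of the control. Ly6c1 was at 4.90 in KO TFR, 4.24 in WT TFR and 5.72 in KO non-TFR cells, all below the expression limit, and at 7.39 in WT non-TFR cells, so that no size is given for its differences here. Ly6c1 and Ly6c2 are near-identical genes, and how the array divides their signal is uncertain.

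In the genotype comparisons 21 of the 32 companions were lower in KO TFR than in WT TFR cells, with a median of -0.13, and 1 (Ccr7) was at least 2-fold lower, beside 46.1% and 0.234% of expressed genes. In non-TFR cells 25 of 32 were lower in the knockout, with a median of -0.23, and 1 (Ly6c1) was at least 2-fold lower, beside 44.2% and 0.126%. Ly6c1 lay below the expression limit on average, so no expressed companion was at least 2-fold lower there. The full order of the 7 genes was found in 12 of the 32, beside 11.0% of expressed genes, and 23 of 32 were lower in both TFR arrays than in both non-TFR arrays, beside 30.1%.

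**Figure D3:**
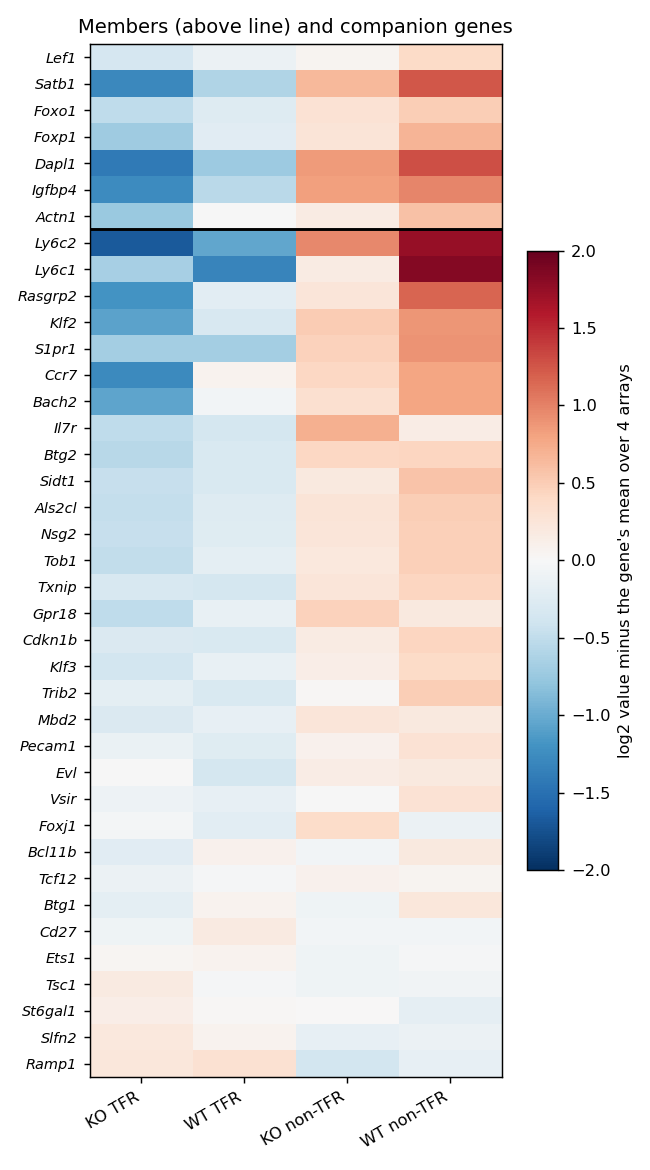
Colour gives the log2 value minus the gene's mean over the 4 arrays, for the 7 genes (above the line) and the 32 companions below it, sorted by their mean population difference, in KO TFR, WT TFR, KO non-TFR and WT non-TFR arrays (columns). Most rows are blue in the TFR columns and red in the non-TFR columns, and the last rows, down to Ramp1, run the other way.

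FOXO1 targets and the kinases upstream of FOXO1 were listed as 24 genes, with 20 measured and all 20 expressed. The list also holds Pdk1, in the mouse the symbol of pyruvate dehydrogenase kinase 1, which is not the kinase upstream of AKT. Pdk1, at -1.05 in the control, is among the genes counted below as at least 2-fold lower there. The list shares 5 measured genes with the companions above (Ccr7, Cdkn1b, Il7r, Klf2 and S1pr1), so their shifts are not separate. In the knockout 18 of 20 were lower in TFR cells, 5 of them by at least 2-fold, 1 gene was at least 2-fold higher, and the median was -0.64. In the control 15 of 20 were lower, 5 of them by at least 2-fold, and the median was -0.46, beside the shares of expressed genes given for the companions. Irs2, an adaptor of insulin receptor signalling and a FOXO target, was at 9.40 in KO TFR, 10.27 in WT TFR, 10.73 in KO non-TFR and 11.32 in WT non-TFR cells. Pik3ip1, an inhibitor of PI3K, was at 7.64 in KO TFR and 7.66 in WT TFR cells and at 8.51 in KO non-TFR and 8.80 in WT non-TFR cells. Bcl6, which FOXO1 can also regulate, went the other way, at 9.94 in KO TFR, 8.82 in WT TFR, 8.10 in KO non-TFR and 7.84 in WT non-TFR cells. Of the 20, 8 had the order of the 7 genes and 14 were lower in both TFR arrays, beside 11.0% and 30.1% of expressed genes. Between genotypes the list had a median of -0.10 in TFR and -0.20 in non-TFR cells.

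Cofactors and target genes of TCF1 and LEF1 were split in direction. Of 20 measured genes, 8 were lower in TFR cells in each genotype, beside 48.4% of expressed genes in the knockout and 47.5% in the control. The median was 0.02 in the knockout and 0.03 in the control. Axin2, a standard target of beta-catenin with TCF factors, was at 8.07 in KO TFR, 7.73 in WT TFR, 8.07 in KO non-TFR and 7.90 in WT non-TFR cells. Tle1, a Groucho corepressor, was at 5.21 in KO TFR and 5.20 in WT TFR cells, both below the expression limit, and at 5.71 in KO non-TFR and 6.21 in WT non-TFR cells. The inhibitor of beta-catenin Ctnnbip1, below the expression limit on average, was 0.78 higher in TFR cells of the knockout and 0.54 higher in those of the control. The order of the 7 genes was found in 3 of the 20, beside 11.0% of expressed genes.

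The paralogs of the 7 genes were mixed as well. Of 17 measured, 9 were expressed. Of the 17, 9 were lower in TFR cells of the knockout and 8 in those of the control, beside 48.4% and 47.5% of expressed genes. None was 2-fold apart in any of the 4 comparisons, beside the shares of expressed genes given for the 7 genes. Foxo3, the forkhead relative of Foxo1, was at 7.48 in KO TFR, 7.68 in WT TFR, 7.84 in KO non-TFR and 8.45 in WT non-TFR cells, in the same order as Foxo1. Foxp4, a relative of Foxp1, was at 10.06 in KO TFR and 10.40 in WT TFR cells and at 9.94 in KO non-TFR and 9.97 in WT non-TFR cells, TFR being 0.12 higher in the knockout and 0.43 higher in the control. Actn4, the other broadly expressed alpha-actinin, was 0.37 higher in TFR cells of the knockout and 0.28 higher in those of the control, opposite to Actn1.

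The profile of the 7 genes, each centred on its own mean over the 4 arrays and then averaged, was -0.89 in KO TFR, -0.36 in WT TFR, 0.44 in KO non-TFR and 0.81 in WT non-TFR cells. Foxp1 lay nearest to this mean profile (root mean squared distance 0.16) and Dapl1 farthest (0.45), followed by Lef1 (0.42), whose range is smaller. Among the other expressed genes, the nearest over the 4 arrays were Qser1 (distance 0.0446), Socs2 (0.0524), Rab3ip (0.0584), Mir1904 (0.0620), Pik3r5 (0.0665) and Sdc4 (0.0705). The gene nearest to each member was Rala for Lef1, Ms4a4c for Satb1, Gbp4 for Foxo1, Grap2 for Foxp1, Ifit1bl1 for Dapl1, Tlr7 for Igfbp4 and Foxn3 for Actn1. With 4 arrays many genes share a profile by their order alone, and the likeness is a description. Socs2, an inhibitor of cytokine receptor signalling, was at 6.75 in KO TFR, 7.39 in WT TFR, 8.14 in KO non-TFR and 8.41 in WT non-TFR cells.

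Cell division genes ran against the 7 genes between the populations. Of 24 measured, all 24 were higher in TFR cells in each genotype, 19 at least 2-fold in the knockout and 21 in the control, beside 3.03% and 4.13% of expressed genes. Their summed linear signal was 25957 in KO TFR, 25200 in WT TFR, 11369 in KO non-TFR and 8988 in WT non-TFR cells. Within TFR cells the genotypes were close, with a median difference of 0.08. Within non-TFR cells all 24 were higher in the knockout, with a median of 0.64 and 6 at least 2-fold higher, beside 0.775% of expressed genes. Mki67, the proliferation marker, was at 11.37 in KO TFR, 11.31 in WT TFR, 9.24 in KO non-TFR and 7.90 in WT non-TFR cells.

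The T follicular programme stood opposite to the 7 genes in each of the 4 comparisons. All 13 of its measured genes were higher in TFR cells in each genotype and higher in the knockout in each population. The list was chosen with earlier results of these data known, so nothing is read from this count. The medians were 1.62 for KO TFR against KO non-TFR, 1.52 for WT TFR against WT non-TFR, 0.87 for KO TFR against WT TFR and 0.70 for KO non-TFR against WT non-TFR cells. This list holds the gate genes Cxcr5 and Pdcd1, which are not findings between the gated populations. In the same 4 comparisons, 48.4%, 47.5%, 46.1% and 44.2% of expressed genes were lower, and these shares stand beside the next lists too. Genes of effector regulatory T cells did not move as a block: of 15 measured, 7 were lower in KO TFR than in KO non-TFR cells (median 0.12) and 3 in WT TFR than in WT non-TFR cells (median 0.73), and 10 were lower in KO TFR than in WT TFR cells (median -0.35) and 7 in KO non-TFR than in WT non-TFR cells (median 0.31). Of 6 regulatory T cell markers, 5 were lower in KO TFR than in KO non-TFR cells (median -0.56) and 3 in WT TFR than in WT non-TFR cells (median -0.03). Between genotypes 5 of these 6 markers were lower in KO TFR than in WT TFR cells (median -0.44), as the 7 genes were, and 2 in KO non-TFR than in WT non-TFR cells (median 0.09). Whether dividing or follicular cells take part in the differences of the 7 genes was not tested.

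**Figure D4:**
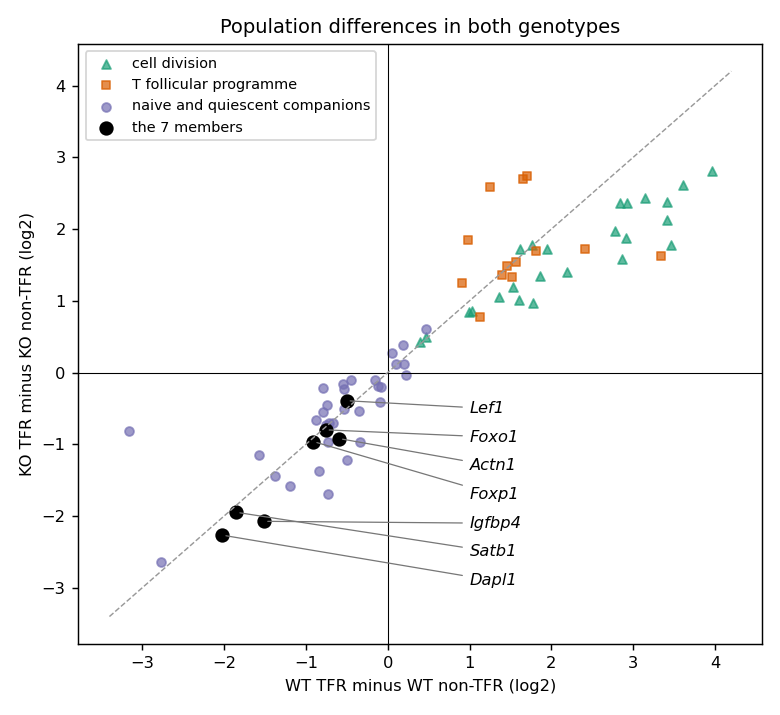
Log2 difference KO TFR minus KO non-TFR (y axis) against WT TFR minus WT non-TFR (x axis), 1 point per gene. The 7 genes (black) lie at lower left from Lef1 (-0.50, -0.39) to Dapl1 (-2.02, -2.27). Most companions also lie at lower left, many of them nearer the origin than the 7 genes. The cell division and T follicular genes lie at upper right. The dashed line marks equal differences, and the 2 axes share no array.

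Markers of other cells were looked at for the same 4 arrays. All 8 myeloid and dendritic markers lay below the expression limit in every array, with a summed linear signal of 257 in KO TFR, 259 in WT TFR, 225 in KO non-TFR and 234 in WT non-TFR cells. Of 9 B cell markers, 5 lay below the limit in every array, Ms4a1 at 3.98 to 4.12 and Cd79a at 5.37 to 5.69, while Cd79b lay at 8.08 to 8.42 and Cd22 was 2.22 higher in TFR cells of the knockout and 2.28 higher in those of the control. Pax5 (6.10) and Blk (6.11) passed the limit in KO TFR cells only. The 9 summed to 1175 in KO TFR, 875 in WT TFR, 677 in KO non-TFR and 549 in WT non-TFR cells. Cd22 is part of this sum and changed most of the 9, at 9.27, 8.27, 7.04 and 5.99, so the order of the sum is not separate from it. Cd79b, the other of the 2 markers expressed on average, did not have this order, at 8.19, 8.42, 8.35 and 8.08. Cd8a lay at 5.36 to 5.60, below the limit in every array. Cd8b1, another CD8 T cell marker, was at 8.73 in both KO TFR and WT TFR cells, at 9.29 in KO non-TFR and at 9.42 in WT non-TFR cells, and so moved with the 7 genes between the populations. Of 4 plasma cell markers 2 lay below the limit in every array, and the 4 summed to 1084 in KO TFR, 1072 in WT TFR, 966 in KO non-TFR and 1022 in WT non-TFR cells. Xbp1, the only 1 of the 4 expressed on average, lay at 9.76 to 9.91 and makes up most of this sum. The 6 CD8 T and NK cell markers summed to 1286 in KO TFR, 1936 in WT TFR, 1517 in KO non-TFR and 1355 in WT non-TFR cells. Nkg7, the brightest of the 6 on average, was at 9.46 in KO TFR, 10.42 in WT TFR, 9.56 in KO non-TFR and 9.12 in WT non-TFR cells. The high sum in WT TFR cells follows this 1 gene. Each of the 4 stroma markers passed the limit in some array. They summed to 1215 in KO TFR, 1136 in WT TFR, 1375 in KO non-TFR and 1523 in WT non-TFR cells. The brightest of them, Pecam1 (9.84 to 10.37), is also a companion gene. The part of other cell types in the differences of the 7 genes was not tested.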

How the data were processed

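Total RNA of 4 sorted samples was measured on 1 Affymetrix array each, and samples were grouped by title. The deposited table holds log2 values of 41345 probes (transcript clusters), as the authors made them; the log2 scale is inferred from values of 2.23 to 13.8. Per the submitters' processing notes MAS5 was used, with no version or role stated; the labels name no background correction, summarization or genome build. Deposited medians spanned 0.105, so all probes were quantile normalized with limma 3.58.1 (R 4.3.3), which also removes a real shift shared by most genes.

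Platform annotation gave 1 gene to 23521 probes, several to 1814 and none to 16010. The brightest probe stood for a gene (22180 genes), and members have every probe listed. With 1 array per group, comparisons are log2 differences without a test or interval, so the 4 arrays limit the precision. The counting steps were tested on simulated data. Alternatives were cyclic loess, no normalization, 75th percentile centring, normalizing named probes only, averaging a gene's probes, and other filters on dim genes. Members and lists were chosen with earlier results of these data known. Genes named were the members, up to 4 per list and comparison with the largest difference, the target and gate genes, marker genes and the nearest profiles. Actn4, Cdkn1b, Ramp1, Ms4a1 and Cd8a were named after their values were seen.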

Additional observations from a re-analysis of the deposited data

Results flagged for a closer look

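For the 7 genes, the genes checking the sort and target, and up to 4 genes of each list with the largest differences in a comparison, the same contrast was compared between populations and between genotypes, and those in which 1 array pair moved one way and the other pair the opposite way, each by at least 0.1, are given here. None of these differences was tested, and each rests on 4 single arrays. The second Foxo1 probe was 0.14 higher in KO TFR than in WT TFR cells, whereas its difference of knockout and control in non-TFR cells was -0.12. Genotype differences in TFR and in non-TFR cells were -0.14 and 0.57 for Il7r, 0.66 and -1.68 for Ly6c1, -0.12 and 0.13 for Foxp2, -0.45 and 0.45 for Igfbp7, -0.15 and 0.37 for Actn2, -0.28 and 0.16 for Actn3, 0.12 and -0.53 for Tle2, and -0.35 and 0.78 for Itgae. They were 0.10 and -0.20 for Pecam1, -0.29 and 0.11 for Ctla4, -0.23 and 0.27 for Cd79b, -0.26 and 0.54 for Jchain, -0.96 and 0.43 for Nkg7, 0.20 and -0.14 for Itgam, -0.13 and 0.33 for Adgre1, and -0.38 and 0.24 for Ikzf4. The population differences in knockout and in control mice were -0.76 and 0.14 for Igfbp7, -1.47 and 0.60 for Gzmb, -0.12 and 0.28 for Ctla4, -0.27 and 0.41 for Prdm1, -0.16 and 0.33 for Cd79b, and -0.68 and 0.12 for Jchain. Foxp2, Actn3, Jchain, Itgam and Adgre1 lay below the expression limit in all 4 arrays, Ly6c1 in all but WT non-TFR cells, Actn2 in all but KO non-TFR cells and Tle2 in all but KO TFR cells, and Gzmb lay below it in KO TFR cells (4.55).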

How the results depend on the processing

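The members' counts were the same under each of the 5 alternative normalizations and probe rules: 3 of 7 at least 2-fold lower in TFR cells in each genotype, 0 of 7 at least 2-fold apart between genotypes, 7 of 7 lower in both TFR arrays and 7 of 7 in the order from KO TFR to WT non-TFR. The alternatives for the order were added after seeing the data. Of 140 member differences under these alternatives none changed sign and 1 moved by over 0.2: Foxo1 in KO TFR minus KO non-TFR was -0.49 with the mean of both probes, against -0.80. Under the same alternative Foxo1 in KO TFR minus WT TFR was -0.06, against -0.25. The medians of the 7 gene lists other than the cell type marker lists, whose medians were not recomputed, moved by less than 0.2. As deposited, the median of all genes was 0.12 in the knockout and 0.11 in the control population comparison, and relative to it the members' median was -0.96 and -0.88. The counts of all genes at least 2-fold apart depended on the filter, which also sets how many genes are counted. Without it, 262 of 22180 genes were lower in KO TFR than in KO non-TFR cells and 261 in WT TFR than in WT non-TFR cells. Of the 11090 expressed genes, 152 and 151 were. Above the 75th percentile, out of 5545 genes, the lower and higher counts were 73 and 84 for KO TFR minus KO non-TFR and 58 and 157 for WT TFR minus WT non-TFR. They were 14 and 8 for KO TFR minus WT TFR and 1 and 38 for KO non-TFR minus WT non-TFR. What shaped these counts beyond the number of genes kept was not tested. No paired analysis was possible because each group is 1 array. Without replicates the array error of these genes is unknown, and differences near the signal floor, as for Dapl1 in KO TFR cells, may be compressed.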
